A study of Mus musculus with 6 samples.

Results

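The myelin protein genes described here are Mbp, Mog, Mag, Mobp, Mal, Opalin, Cnp, Aspa and Cldn11, 9 of the 32285 genes counted, and each was found by its symbol, which named a single gene in the count tables. They were measured by single-nucleus RNA-sequencing (snRNA-seq) in a mouse model (C57BL/6 S-56) of post-hemorrhagic hydrocephalus. Neonates of the LPA-injected group received 18:1 lysophosphatidic acid (LPA), a blood-borne lipid, as 5 µl into the right lateral ventricle at postnatal day 7, and vehicle neonates received the 0.01% bovine serum albumin carrier in the same way. The labels give no LPA concentration, sex or genotype beyond this, and none of the mice carried a named transgene. Brains without olfactory bulbs and cerebellum were taken at postnatal day 15, and nuclei negative for the neuronal protein NeuN were sorted and prepared with the 3′ v3 kit of 10x Genomics. There were 3 LPA and 3 vehicle libraries, named LPA 1 to 3 and vehicle 1 to 3. The labels call them replicates and say nothing of which animals they came from, so every p-value measures only the spread between these libraries.

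Oligodendrocytes wrap axons in compact layers of their own membrane, and they do so in steps: a dividing precursor commits to the lineage, becomes a newly formed oligodendrocyte that switches on myelin genes, then forms myelin and matures. The proteins of the sheath have distinct places in it. Myelin basic protein (Mbp) zippers the cytoplasmic faces of the membrane together, Cnp keeps cytoplasmic channels open between the layers, Cldn11 makes the tight junctions of central myelin, Mag lies on the innermost turn facing the axon, Mobp is a small basic protein of compact myelin, Mog stands on the outermost surface, Mal sorts lipids and proteins to the membrane, and Opalin is a membrane glycoprotein of oligodendrocyte processes. Aspa is an oligodendrocyte enzyme that frees acetate from N-acetylaspartate and is not itself part of the sheath.

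The genes lie apart in the genome, except that Cnp and Aspa share a chromosome. On GRCm38, the build that mm10 names, Mbp spans chr18:82475146-82585637 on the plus strand, Mog chr17:37010743-37023398 on the minus strand and Mag chr7:30899176-30914873 on the minus strand. Mobp spans chr9:120149707-120181484 (plus), Mal chr2:127633226-127656695 (minus) and Opalin chr19:41061710-41077113 (minus). Cnp spans chr11:100574904-100591729 (plus), Aspa chr11:73304992-73329596 (minus) and Cldn11 chr3:31149920-31164324 (plus). Intronic and exonic reads of the whole span were counted together. Mobp overlaps the transcript Gm38642 on its own strand, so reads of the pair could have been split in counting, and Cnp, Mbp and Mog overlap Dnajc7, Rpl21-ps8 and Gm22388 on the opposite strand.

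Mobp and Opalin were the members called between the groups within a stage, so the bases just before their start sites are shown, from RefSeq on GRCm38.p6, 5′ to 3′ on the strand of the gene. Capitals mark each match to ACAAAG or to its reverse complement CTTTGT, letters that Sox-family transcription factors, SOX10 among them, are known to bind.

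Mobp, chr9:120149492-120149706, plus strand: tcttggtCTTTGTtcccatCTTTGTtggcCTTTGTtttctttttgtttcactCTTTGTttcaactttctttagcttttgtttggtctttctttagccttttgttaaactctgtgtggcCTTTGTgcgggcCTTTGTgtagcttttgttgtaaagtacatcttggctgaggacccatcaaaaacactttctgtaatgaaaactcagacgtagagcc

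Opalin, chr19:41077114-41077363, minus strand: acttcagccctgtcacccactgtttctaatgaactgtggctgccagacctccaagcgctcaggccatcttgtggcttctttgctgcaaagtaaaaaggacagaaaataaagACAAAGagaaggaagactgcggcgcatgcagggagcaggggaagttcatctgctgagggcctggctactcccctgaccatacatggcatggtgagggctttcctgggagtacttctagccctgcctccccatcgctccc

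Of the 9 members, 8 matched an entry of the promoter table, and Mbp is only named. Over the 250 bases before the start, ACAAAG was found on either strand 6 times for Mobp and 1 time each for Mag, Opalin and Cnp, and it was not found for Mog, Mal, Aspa and Cldn11. Of 32851 promoters of the same length, 16.5% held the letters, 6 was the most found in any of them, and 7 promoters (0.0213%) held 4 or more. ACAATG, a second form of the Sox motif, was found for none of the 8 members and in 10.7% of all promoters. The binding letters of MYRF, a transcription factor that drives myelin genes, were found as CTGGCAC for Mag and Cnp (4.19% of all promoters) and as CTGGTAC for Mog (1.83%). These are matches of letters in this window only. For Aspa the window was chr11:73324638-73324887, before a RefSeq start inside the span given above, so the start of that span was not searched.

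The libraries held 48852970 to 65688644 UMIs (unique molecular identifiers, each marking 1 captured RNA) in 8639 to 12894 barcodes. After filters, 57443 nuclei were kept, 7579 to 11745 per library, and pairs of libraries shared 268 to 303 barcodes (2.13% to 3.34%). A score for doublets called 12.3% to 15.4% of nuclei per library, and their removal is among the alternatives. Nuclei were clustered without the 9 members and without every marker gene, and clusters were named from markers. Neuronal clusters were present despite the sort, with 1903 to 3598 nuclei per library. Of the markers of Schwann cells, which make peripheral myelin, Drp2 was the most often detected and was found in 3.35% of lineage nuclei and 10.9% of all.

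The oligodendrocyte lineage held 1676, 2301 and 1929 nuclei in the LPA libraries and 1884, 2726 and 2457 in the vehicle libraries. It fell into precursors (2961 nuclei), committed precursors (942), a cluster between the committed and newly formed stages (1036), newly formed oligodendrocytes (1868), myelin-forming oligodendrocytes (2329) and mature oligodendrocytes (3837). Each stage was named from several markers, and its defining genes peaked as follows, in UMIs per nucleus. Pdgfra was at 3.51 in precursors, Gpr17 at 3.25 in committed precursors and 1.74 in the intermediate cluster, Enpp6 at 6.40 in the intermediate cluster and 4.23 in newly formed nuclei, and Hapln2 at 1.5 in mature nuclei. Cemip2 was at 18.3 in newly formed nuclei and 1.58 in the nuclei named myelin-forming, so that gene goes against the name "Cemip2 stage" for the latter, while Casr was at 1.06 and 1.02 in the same pair. Both gate genes of the myelin-forming stage were thus at least as high in the nuclei named newly formed.

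The members did not appear at one point along the lineage but in an order, described here by the level at each stage as a percent of the gene's own highest stage. Levels are in CPM, the UMIs of a gene relative to all UMIs of the summed nuclei, scaled by the trimmed mean of M values (TMM) over all genes, with means over the 6 libraries. Stages were separated by expression, so these levels carry no test.

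Mbp and Cnp came first. Mbp stood at 3.77% of its highest level in precursors, 12.3% in committed precursors, 50.5% in the intermediate cluster, 87.9% in newly formed, 98.0% in myelin-forming and 100% in mature nuclei, where it reached 11718 CPM. Cnp followed the same course with 10.4%, 25.6%, 61.1%, 81.6%, 100% (544 CPM) and 96.7%. Cldn11 stood at 6.36%, 13.5%, 42.7%, 87.7%, 92.0% and 100% (559 CPM). These 3 genes, of membrane compaction, cytoplasmic channels and tight junctions, were therefore at 81.6% or more of their highest level in the nuclei named newly formed. Those nuclei held the most Cemip2, a gene of the myelin-forming gate, so these values do not place the rise before myelin formation.

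Mag, the adhesion molecule facing the axon, stood at 18.4% in the intermediate cluster, 69.3% in newly formed nuclei, 100% (2448 CPM) in myelin-forming nuclei and 56.3% in mature nuclei. Mobp stood at 3.18% in the intermediate cluster, 40.8% in newly formed nuclei and 100% (5087 CPM) in myelin-forming nuclei. Within the newly formed stage Mobp differed by cluster, with 539 CPM in the earlier and 3176 CPM in the later of its 2 clusters. Mog and the last 3 genes rose a step later. Mog was at 12.7% in newly formed, 78.8% in myelin-forming and 100% (1837 CPM) in mature nuclei.

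Aspa, Mal and Opalin were near their precursor level until the newly formed stage and then rose. Aspa was at 3.44% in precursors, 2.32% in newly formed nuclei, 47.3% in myelin-forming nuclei and 100% (630 CPM) in mature nuclei. Mal was at 3.71%, 2.03%, 33.7% and 100% (613 CPM) at the same stages. Opalin was at 3.41%, 2.65%, 100% (353 CPM) and 59.0%. Opalin stood at 193 and 471 CPM in the 2 myelin-forming clusters and at 331, 183 and 72.3 CPM in the 3 mature clusters, ordered from the lowest to the highest level of Hapln2, which had 0.358, 1.37 and 3.39 UMIs per nucleus there. Aspa in the same mature clusters stood at 648, 643 and 631 CPM. Mature nuclei thus differed among themselves in Opalin and hardly in Aspa.

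**Figure D1:**
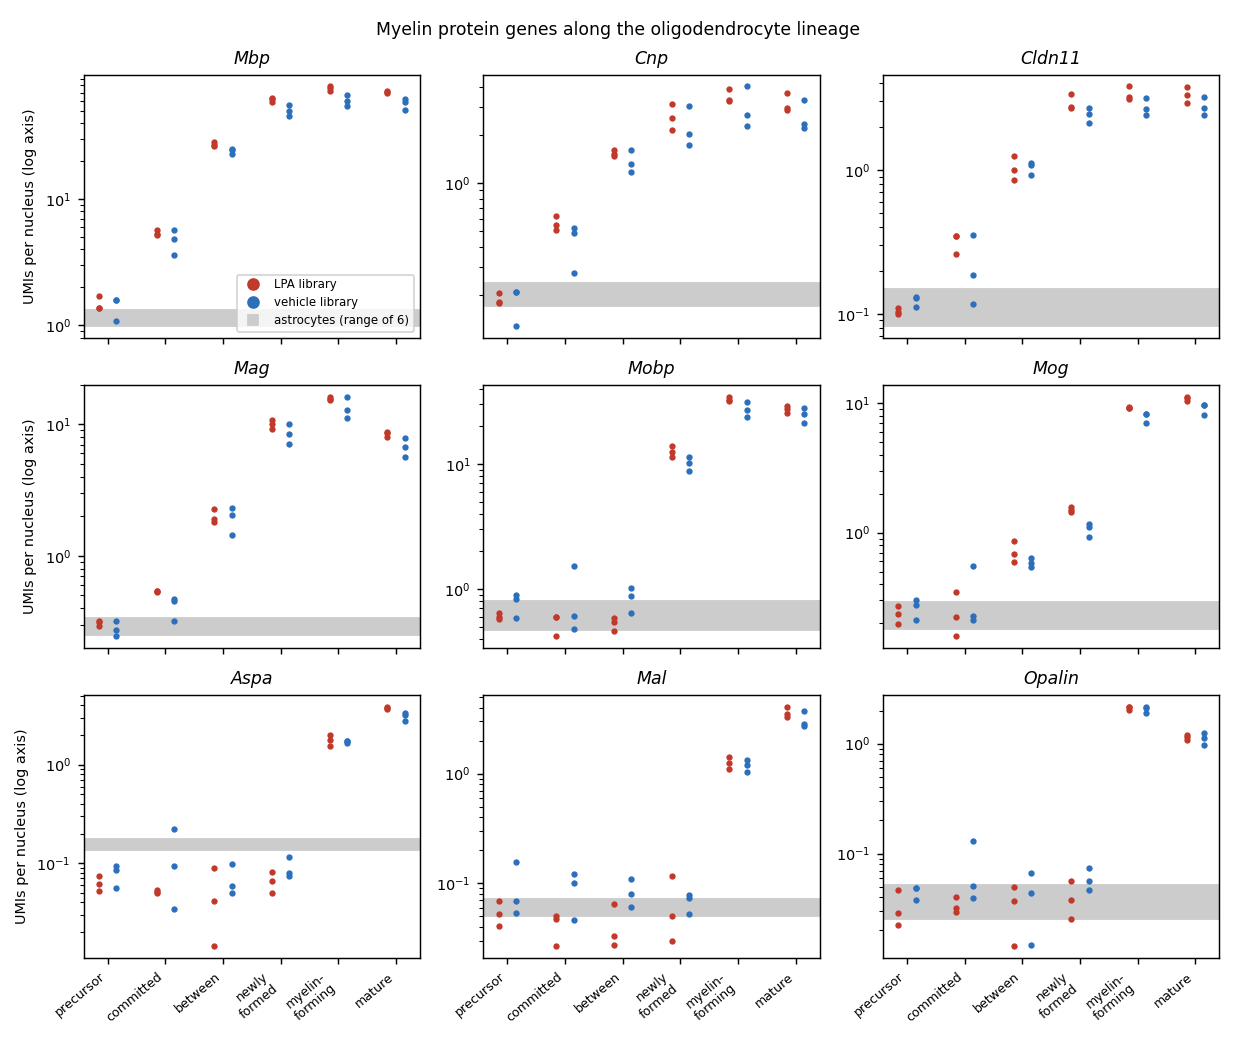
Level of each of the 9 genes (raw UMIs per nucleus on a log axis, not scaled for depth) at the 6 stages of the oligodendrocyte lineage, 1 point per library, LPA and vehicle apart. The gray band is the range of the 6 libraries in astrocytes. Mbp, Cnp and Cldn11 are high from the newly formed stage on, while Aspa, Mal and Opalin stay low there and are high in myelin-forming and mature nuclei.

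The genes outside the 9 whose level over the 30 sums of stage and library was most like the mean standardized level of the members were Mink1 (Pearson's r = 0.989), Sept4 (0.989), Itpk1 (0.987), Enpp2 (0.986) and Nkx6-2 (0.986), among 13115 genes. The sums share libraries and stages, and the likeness is a description.

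The first comparison asks how LPA injection changed the members over the lineage as a whole, before stages are told apart. UMIs were summed over all lineage nuclei of a library and tested with edgeR's quasi-likelihood test, and a gene was called at a Benjamini-Hochberg adjusted p under 0.05 over all genes tested and a log2 fold-change of 0.25 or more in size. In these sums 8 of 9 members were called, all lower in the LPA libraries, where 12% of 15196 genes were called and 4.4% were called lower. The median log2 fold-change of the 9 members was -0.44 against -0.01 over all genes. A sum over the lineage cannot tell fewer late-stage nuclei from less RNA per nucleus.

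Opalin was furthest from the vehicle level. It stood at 114, 116 and 125 CPM in the LPA libraries and at 173, 181 and 194 CPM in the vehicle libraries, a log2 fold-change of -0.63 ± 0.063 (SE; edgeR adjusted p = 1.34e-05). Mal, at 214, 173 and 227 against 310, 277 and 311 CPM, fell by 0.55 on the log2 scale (SE 0.0857, edgeR adjusted p = 0.000474). Aspa, at 247, 200 and 238 against 300, 332 and 353 CPM, fell by 0.52 (SE 0.0801, edgeR adjusted p = 0.000393). In all 3 genes every LPA library lay below every vehicle library, and these were the genes of latest onset.

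Mobp stood at 2500, 2457 and 2825 CPM against 3576, 3468 and 3572 CPM (log2 fold-change -0.45 ± 0.0592, edgeR adjusted p = 0.000123). Mog stood at 880, 764 and 849 against 1035, 1162 and 1174 CPM (-0.44 ± 0.0704, edgeR adjusted p = 0.000605). The groups did not overlap for this pair either. Mag stood at 1089, 1160 and 1268 against 1565, 1364 and 1390 CPM (-0.30 ± 0.0706, edgeR adjusted p = 0.0105).

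Mbp had the highest count and the smallest fold of the called genes, at 7641, 7367 and 8135 CPM against 9241, 9132 and 9697 CPM (-0.28 ± 0.0486, edgeR adjusted p = 0.00109). Cldn11 stood at 320, 337 and 416 against 459, 419 and 447 CPM (-0.30 ± 0.0843, edgeR adjusted p = 0.0248), with only a narrow gap between LPA 3 and vehicle 2. Cnp was the member not called: LPA 3 at 420 CPM lay above vehicle 2 at 389 and vehicle 3 at 413 CPM, and the log2 fold-change of -0.29 ± 0.107 had an edgeR adjusted p of 0.0875. The count of called members ranged from 5 without LPA 2 (6.94% of genes called) to 9 without LPA 3 (11.5%).

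The myelin-forming and mature stages were a smaller part of the lineage in the LPA libraries. Mature nuclei made up 23.2% ± 3.47 of lineage nuclei in the LPA libraries and 35.0% ± 2.31 in the vehicle libraries (SD, n = 3 each; two-sided exact permutation p = 0.1, the smallest that 20 assignments allow, adjusted p = 0.12 over the stages). Myelin-forming nuclei made up 15.6% ± 1.80 against 19.9% ± 1.33, and newly formed nuclei 13.8% ± 1.69 against 15% ± 1.90 (exact permutation p = 0.1 and 0.6). Precursors made up 29.0% ± 2.13 against 17.4% ± 2.24, committed precursors 9.28% ± 0.462 against 5.62% ± 0.563, and the intermediate cluster 9.02% ± 0.678 against 7.10% ± 0.379 (exact permutation p = 0.1 each). Apart from the newly formed stage, no LPA library overlapped a vehicle library in any of these shares. Of all kept nuclei, mature and myelin-forming oligodendrocytes together were 8.61% ± 0.318 in the LPA libraries and 12.6% ± 0.344 in the vehicle libraries (exact permutation p = 0.1).

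To set the mix of stages apart from the levels within them, each library's lineage level was computed once from its own stage shares and once from shares common to all 6 libraries. With its own shares, Opalin differed by -0.71 on the log2 scale, Mal by -0.65, Aspa by -0.62, Mobp by -0.55, Mog by -0.52, Cldn11 by -0.39, Mag by -0.38, Mbp by -0.36 and Cnp by -0.35. With common shares, Mbp differed by -0.02, Mag by -0.04, Cnp and Cldn11 by -0.06, Mog by -0.07, Mobp and Aspa by -0.12, Mal by -0.15 and Opalin by -0.29. Letting only the shares differ gave differences of -0.51 for Mal and -0.50 for Aspa and of -0.42 for Opalin. The common-share level of Opalin ran from 110 to 121 CPM in the LPA libraries and from 140 to 143 CPM in the vehicle libraries. The groups did not overlap for Mbp, Mobp, Opalin and Aspa (exact permutation p = 0.1 each), and they overlapped for Mog (0.2), Mal (0.3), Cldn11 (0.5), Cnp (0.7) and Mag (0.9), by the same exact test. The share of all genes without overlap was not counted. The split between stage mix and levels depended on how stages were set. With gates on single genes, described further on, common shares left differences of -0.22 for Mbp to -0.61 for Opalin. The shares alone then gave -0.04 for Opalin to -0.14 for Mal.

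**Figure D2:**
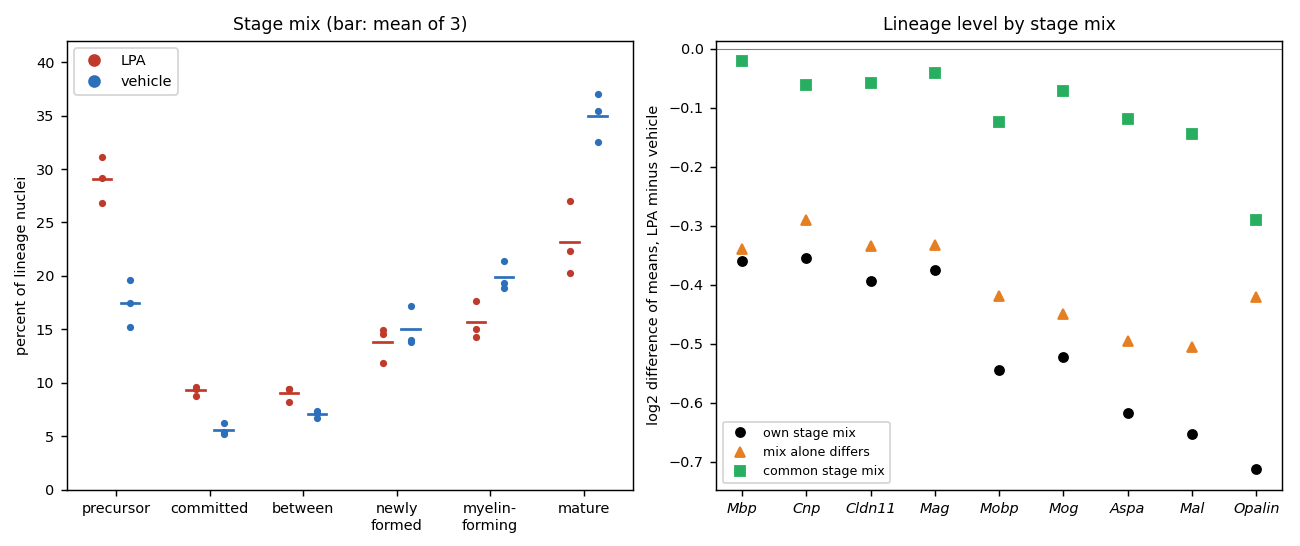
Left, the percent of lineage nuclei at each stage, 1 point per library and a bar for the mean of 3. Right, the log2 difference in lineage level (LPA minus vehicle) of each gene with each library's own stage mix, with the mix alone differing, and with a common mix; the common-mix values lie between -0.15 and -0.02 for all genes but Opalin at -0.29 with stages from clusters, as plotted, and were larger with gates on single genes.

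Within stages, few members were called. In mature oligodendrocytes 1 of 9 was called, against 0.751% of 11714 genes in either direction and 0.341% lower. That gene was Opalin, at 181, 197 and 190 CPM in the LPA libraries and 236, 225 and 222 CPM in the vehicle libraries, a log2 fold-change of -0.27 ± 0.062 (edgeR adjusted p = 0.0494). The 2 groups did not overlap, but the call lay at the threshold and was lost without any 1 of the 6 libraries. Mobp was next, at 4276, 4545 and 4767 against 5255, 5087 and 4921 CPM, with a log2 fold-change of -0.17 ± 0.0404 (edgeR adjusted p = 0.0613), again without overlap. The other 7 members lay between -0.07 and 0.02 on the log2 scale.

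Mbp in mature nuclei shows how close the groups were. It stood at 11703, 11443 and 11986 CPM in the LPA libraries and at 11611, 11847 and 11720 CPM in the vehicle libraries, with means of 11711 ± 271 and 11726 ± 118 (SD, n = 3) and a log2 fold-change of 0.00 ± 0.0252 (edgeR adjusted p = 0.989). Raw UMIs per mature nucleus gave another picture: Mbp had 70.4, 69.4 and 72.9 UMIs per nucleus in the LPA libraries and 62.1, 59.1 and 50.9 in the vehicle libraries. Depth moved with the groups in the same direction. The median mature nucleus held 5953, 5966 and 6073 UMIs of all genes in the LPA libraries and 5163, 4856 and 4250 in the vehicle libraries, and its part in the raw difference was not tested.

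The share of nuclei with at least 1 UMI was compared after thinning each nucleus to 1000 UMIs. Nuclei under 1000 UMIs were left out of the thinned shares but not of the unthinned ones. Mog was detected in 83.0%, 81.3% and 83.5% of mature nuclei in the LPA libraries and 79.1%, 86.6% and 84.0% in the vehicle libraries, overlapping. Opalin was detected in 17.9%, 14.8% and 16.2% against 20.8%, 18.2% and 18.6% of mature nuclei, and unthinned in 54.1% against 55.5% on average. The groups did not overlap for Opalin. With 3 libraries against 3 the exact permutation p cannot go below 0.1, so none of the 288 shares over members and cell groups could pass a test.

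The 3 mature clusters were tested apart for Opalin. In the clusters with low, middle and high Hapln2 the log2 fold-change was -0.22, 0.13 and -0.43 (edgeR adjusted p = 0.423, 0.805 and 0.461), and edgeR called no member in any of them (2, 1 and 2 had an unadjusted p under 0.05, and Mobp in the cluster of high Hapln2 had an adjusted p of 0.0454 with a log2 fold-change of -0.25, just under the size limit), where 0.441%, 0.222% and 0.128% of genes were called. The cluster of high Hapln2, in which Opalin was lowest, held 34.4%, 33.0% and 29.7% of mature nuclei in the LPA libraries and 24.7%, 23.7% and 24.9% in the vehicle libraries (exact permutation p = 0.1). Its part in the Opalin difference over the whole mature stage was not tested.

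In myelin-forming oligodendrocytes 0 of 9 members were called by edgeR, where 0.253% of genes were called, and 3 had an unadjusted p under 0.05. DESeq2 called 0, where it called 0.187% of genes. Opalin stood at 310, 336 and 330 CPM in the LPA libraries and 360, 387 and 396 CPM in the vehicle libraries (log2 fold-change -0.23 ± 0.0727, edgeR adjusted p = 0.271). Aspa stood at 278, 240 and 303 against 295, 321 and 351 CPM (-0.24 ± 0.0827, edgeR adjusted p = 0.343), with an overlap of LPA 3 and vehicle 1. Mal was at -0.19 and the other 6 members between -0.03 and 0.04. Mobp, for example, stood at 5018, 4954 and 5297 against 5300, 4976 and 4977 CPM.

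In newly formed oligodendrocytes 0 of 9 members were called by edgeR, where 0.118% of genes were called. For 3 members the unadjusted p was under 0.05, and the lowest edgeR adjusted p was 0.659. DESeq2 called 0, where it called 0.0395% of genes. Mobp lay at a like level in both groups, at 1948, 2077 and 2202 against 2139, 2050 and 2026 CPM (log2 fold-change 0.00 ± 0.0606). Mog was the only member above vehicle in every LPA library, at 250, 262 and 236 against 217, 223 and 216 CPM, a log2 fold-change of 0.19 ± 0.0809 that was not called (edgeR adjusted p = 0.728). Mbp stood at 10222, 10360 and 10105 against 10350, 10161 and 10618 CPM. The largest folds were those of Opalin (-0.80, edgeR adjusted p = 0.728), Aspa (-0.73, 0.659) and Mal (-0.38, 0.892), none called. These 3 genes had only 97, 151 and 126 UMIs at this stage over all libraries.

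Before the newly formed stage, Mobp was the member called in the stages as a whole. In precursors it was 1 of 9 members, where 0.165% of 11538 genes were called and 0.13% were lower. Mobp stood at 175, 165 and 170 CPM in the LPA libraries and at 258, 291 and 218 CPM in the vehicle libraries (log2 fold-change -0.60 ± 0.0866, edgeR adjusted p = 0.000408). The other 8 members were also below 0, from -0.97 for Mal to -0.11 for Mag, none with an edgeR adjusted p under 0.237. The precursor clusters were also tested apart. In the larger of the 2 main clusters Mobp was called (-0.67, edgeR adjusted p = 0.00049), 1 of 8 members tested, where 0.0987% of genes were called lower. In the other, 2 of 7 members were called, where 0.195% of genes were called lower: Mobp (-0.92, edgeR adjusted p = 1.87e-05) and Mbp (-0.76, 2.25e-05). Mbp stood there at 277, 375 and 286 CPM in the LPA libraries and at 527, 535 and 541 CPM in the vehicle libraries. In the larger cluster Mbp was at -0.15 (edgeR adjusted p = 0.848). A smaller precursor cluster of 279 nuclei went the other way, with Mbp at 0.82 (edgeR adjusted p = 0.123) and Mobp at 0.22 (0.937). Neither was called there, where 0.0275% of genes were called.

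In the intermediate cluster 1 of 8 tested members was called, where 0.228% of 7888 genes were called and 0.19% were lower. Mobp stood there at 107, 124 and 96.7 CPM in the LPA libraries and at 211, 251 and 181 CPM in the vehicle libraries (-0.97 ± 0.133, edgeR adjusted p = 4.13e-05). Mal, with counts near the floor, was at -1.38 (edgeR adjusted p = 0.181). Opalin did not pass the filter on low counts in this cluster.

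In committed precursors 0 of 6 tested members were called by edgeR, where 0.114% of genes were called, and 2 had an unadjusted p under 0.05. DESeq2 called 0, where it called 0% of genes. Mobp stood at 107, 163 and 150 CPM in the LPA libraries and at 142, 472 and 216 CPM in the vehicle libraries (-1.0 ± 0.233, edgeR adjusted p = 0.117). Vehicle 2 was more than 2 times the other vehicle libraries, and LPA 2 lay above vehicle 1. Mal, Opalin and Aspa did not pass the filter at this stage.

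**Figure D3:**
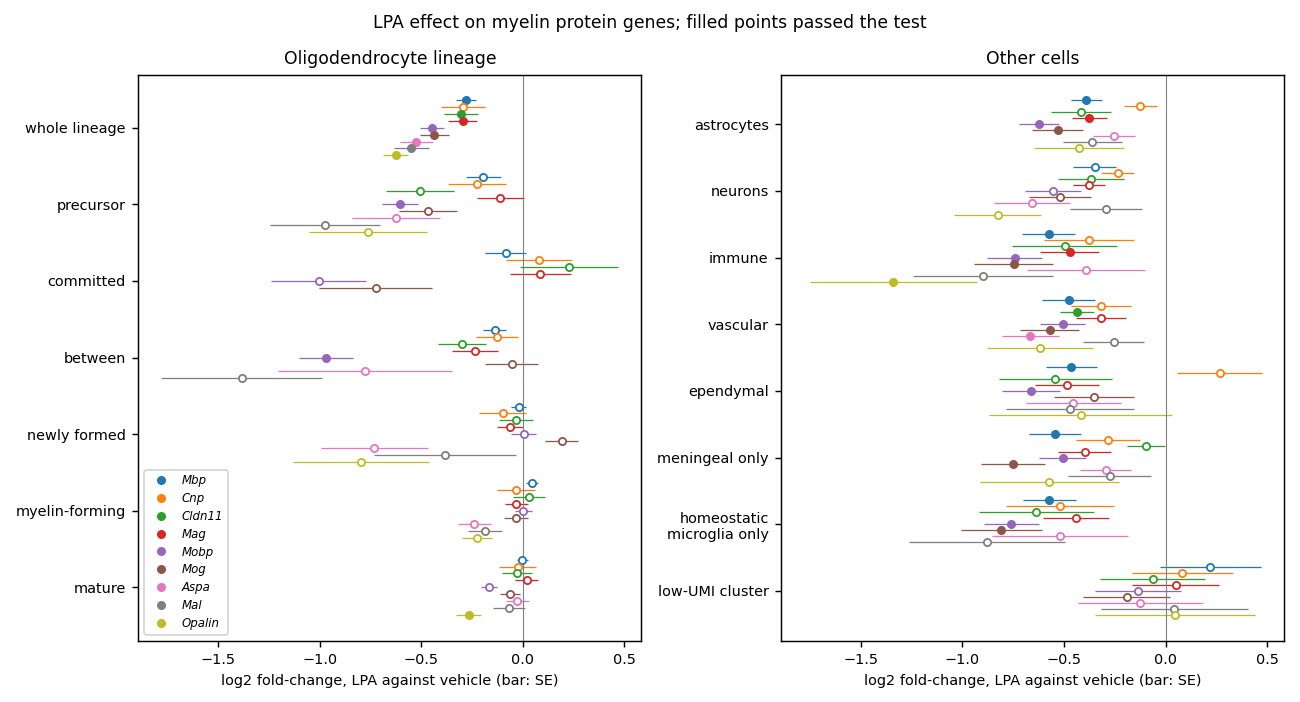
log2 fold-change (LPA against vehicle) of each of the 9 genes with its standard error, over the whole lineage, at each stage and in other cells; filled points passed the test. The whole-lineage points lie between -0.63 and -0.28, and most points of the newly formed, myelin-forming and mature stages lie near 0.

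Whether the LPA effect itself differed between stages was tested in 1 fit over the 5 named stages, the intermediate cluster left out, with the library as a fixed effect. Of 13124 genes, 0.328% had a joint edgeR adjusted p under 0.05, and 2 members were among them: Mobp (edgeR adjusted p = 0.000117) and Aspa (edgeR adjusted p = 0.0229). The LPA effect on Mobp in committed precursors minus that in mature nuclei was -0.82 on the log2 scale (edgeR adjusted p = 0.0473), and in precursors minus mature -0.41 (edgeR adjusted p = 0.389). This rested on vehicle 2: without it the joint adjusted p was 0.154 for Mobp and 0.811 for Aspa, and the committed difference in Mobp was -0.11. The committed difference in Mobp also missed the threshold without LPA 1, LPA 2 or LPA 3 (edgeR adjusted p = 0.279, 0.0939 and 0.119). The committed difference was -0.38 (edgeR adjusted p = 0.71) without called doublets, whereas the joint test then gave an adjusted p of 5.35e-06 for Mobp and 0.0116 for Mog, which without that removal was at 0.0603. The Mobp level in precursors and the intermediate cluster, moreover, was close to that found in cells that do not make myelin, described next.

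UMIs of the members were found in every cell class. A nucleus outside the lineage held on average 0.998 to 1.60 Mbp UMIs in 9 cell types, with 1.09 in astrocytes and 1.60 in neurons, against 57.4 to 70.9 as the group means in mature oligodendrocytes. As a percent of the mature level in raw UMIs per nucleus, Mbp was at 1.73% in astrocytes, 1.61% in homeostatic microglia and 1.70% in endothelial cells. Mobp was at 0.553 to 0.643 UMIs per nucleus in the 9 types, at 0.591 in astrocytes, and at 0.607 in LPA and 0.770 in vehicle precursors. Mog was at 0.189 to 0.234. This like level in unlike cells was taken as the background, since RNA free in the suspension can enter every droplet. Of all Mbp UMIs in kept nuclei, 66.8% to 74.8% lay in lineage nuclei and 11.5% to 13.6% in nuclei of the 5 other classes.

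Shares after thinning were read against that level. Mobp was detected in 13.3%, 15.1% and 12.2% of precursors in the LPA libraries and in 18.2%, 25.2% and 23.3% in the vehicle libraries. In astrocytes, which should lack it, Mobp was detected in 12.5%, 15.1% and 13.7% against 18.6%, 23.8% and 22.8%. Precursors therefore stood at the astrocyte level in each group, with unthinned shares of 37.7% and 48.9% in precursors and 38.6% and 46.1% in astrocytes (LPA and vehicle means). The median astrocyte held 3431, 3265 and 3381 UMIs in the LPA libraries and 3017, 2936 and 2536 in the vehicle libraries, and the median precursor 3644, 3322 and 3480 against 3019, 2932 and 2562. Mobp in newly formed nuclei was detected in 60.4% to 62.6% of LPA and 66.3% to 70.1% of vehicle nuclei, above the astrocyte share in each library. Opalin in newly formed nuclei, at 0.869%, did not exceed its astrocyte share of 1.10%.

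The members were also a smaller part of all RNA counted in the LPA libraries. As a share of all UMIs in the kept nuclei of a library, Opalin differed by -0.58 on the log2 scale, Mal by -0.48, Aspa by -0.47, Mobp by -0.41, Mog by -0.39, Cldn11 by -0.32 and Mbp by -0.24, without overlap of the groups (exact permutation p = 0.1 each). Mag (-0.26) and Cnp (-0.20) overlapped (exact permutation p = 0.2 and 0.3). Here too the share of all genes without overlap was not counted.

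In astrocytes 4 of 9 members were called lower, where 8.39% of genes were called and 3.23% were lower. They were Mobp (log2 fold-change -0.62), Mog (-0.53), Mbp (-0.39) and Mag (-0.38), with edgeR adjusted p = 0.000453, 0.0104, 0.00261 and 0.00923. Mobp in astrocytes stood at 131, 160 and 151 CPM in the LPA libraries and at 185, 260 and 231 CPM in the vehicle libraries, beside a log2 fold-change of -0.60 in precursors. Vehicle 2 was the highest library in this class as in committed precursors, and without it 2 members were called (5.98% of genes called). These folds, and those of the classes below, are of CPM, and astrocyte nuclei were deeper in the LPA libraries. Raw Mbp UMIs were 1732, 2255 and 1615 in 1738, 2086 and 1601 LPA astrocytes. In the vehicle libraries they were 1238, 2632 and 1829 in 1110, 1981 and 1839 astrocytes. Per nucleus, raw UMIs overlapped between the groups for Mbp, Mog and Mag and did not for Mobp. The part of depth in these folds was not tested.

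In neurons 0 of 9 members were called by edgeR although 8 had an unadjusted p under 0.05 (lowest adjusted p = 0.23), where 0.0648% of genes were called. DESeq2 called 1 member, where it called 0.2% of genes. In immune cells 5 of 9 were called lower, where 6.33% of genes were called and 2.58% were lower: Mobp (-0.74, edgeR adjusted p = 0.000339), Mbp (-0.58, 0.00364), Mog (-0.75, 0.0132), Mag (-0.47, 0.0455) and Opalin (-1.34, 0.0465). Activated microglia made up 29.5% ± 4.57 of immune nuclei in the LPA libraries and 0.278% ± 0.481 in the vehicle libraries (SD, n = 3), so homeostatic microglia were also tested alone. There 3 of 8 members were called (0.839% of genes lower): Mobp (-0.76), Mbp (-0.57) and Mog (-0.81), with edgeR adjusted p = 0.000131, 0.00485 and 0.0127. Raw UMIs per homeostatic microglial nucleus overlapped between the groups for these 3 genes. Without vehicle 2 no member was called in immune cells (3.08% of genes called). In macrophages edgeR called 0 of 2 members tested, 1 of them with an unadjusted p under 0.05 (0% of 1810 genes called).

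In vascular cells 5 of 9 members were called lower, where 8.24% of genes were called and 3.26% were lower: Cldn11 (-0.44, edgeR adjusted p = 0.00355), Aspa (-0.67, 0.00754), Mobp (-0.51, 0.00865), Mog (-0.57, 0.0233) and Mbp (-0.48, 0.0311). Meningeal cells made up 50.6% ± 3.65 of vascular nuclei in the LPA libraries and 71.1% ± 1.26 in the vehicle libraries (SD, n = 3; exact permutation p = 0.1). Within meningeal cells alone, 3 of 9 were called (0.529% of genes lower), namely Mog (-0.75), Mobp (-0.51) and Mbp (-0.54), with edgeR adjusted p = 0.0167, 0.0321 and 0.0372, and Aspa (-0.30, 0.373) and Cldn11 (-0.10, 0.802) were not. Pericytes had 2 of 8 called (0.327% of genes lower), Mobp (-0.72, edgeR adjusted p = 0.00659) and Mbp (-0.63, 0.036), and endothelial cells 0 of 8 by edgeR, 3 with an unadjusted p under 0.05 (0.0934% of genes called). Over all vascular cells, 1 member was called without LPA 3 (4.78% of genes called). Raw Mbp UMIs per vascular nucleus overlapped between the groups, and those of Mobp and Mog did not.

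In ependymal cells 2 of 9 members were called lower, where 3.12% of genes were called and 0.681% were lower: Mobp (-0.66, edgeR adjusted p = 0.00965) and Mbp (-0.46, 0.0384). The same 2 were called of 8 in ciliated ependyma (1.8% of genes lower), and edgeR called 0 of 7 in choroid plexus, 3 with an unadjusted p under 0.05 (0.126% of genes called). Over all ependymal cells no member was called without LPA 1, LPA 3, vehicle 2 or vehicle 3 (1.65%, 1.17%, 1.43% and 1.25% of genes called). A cluster of 1434 low-UMI nuclei, with medians of 579 to 731 UMIs, gave 0 of 9 by edgeR, none with an unadjusted p under 0.05 (0.116% of genes called), and log2 fold-changes of -0.19 to 0.22. No member was called higher in any cell type tested.

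**Figure D4:**
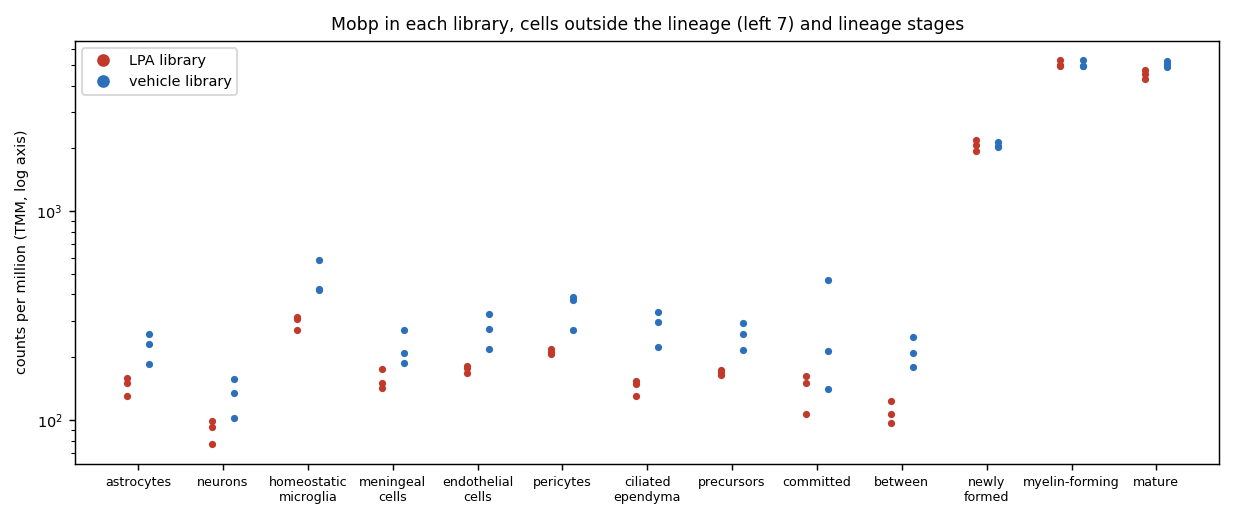
Mobp level (CPM on a log axis) in each library, for 7 cell types outside the lineage and the 6 lineage stages. In precursors (165 to 291 CPM) Mobp lay in the range of cells that make no myelin, with vehicle libraries above LPA libraries, while in myelin-forming nuclei both groups lay between 4954 and 5300 CPM.

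The make-up of the free RNA, given as UMIs of a gene per 100 Mbp UMIs of the same nuclei, was alike in most cell types and departed from it for a few genes. Aspa was at 40.1 in meningeal cells (range over libraries 34.5 to 59.6) and 14.3 in astrocytes (12.1 to 15.9), with 10.8 in ciliated ependyma and 4.05 to 7.24 in the remaining types. Cldn11 was at 38.7 in meningeal cells (26.7 to 55.6) and 7.44 to 10.1 elsewhere outside the lineage, and it is known to be made by barrier cells of the meninges as well as by oligodendrocytes. In raw terms a meningeal nucleus held 0.403 Aspa and 0.382 Cldn11 UMIs.

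Mal was at 14.1 per 100 Mbp UMIs in endothelial cells (9.81 to 19.5) and 3.80 to 7.04 in the other types. Cnp was at 20.1 in astrocytes (16.3 to 23.0) and 16.4 in ciliated ependyma. Mobp at up to 60.6, Mag at 20.8 to 30.5 and Mog at 14.6 to 20.1 varied over the types without one far from the rest. The source of the higher values of Aspa, Cldn11, Mal and Cnp in single types was not tested.

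**Figure D5:**
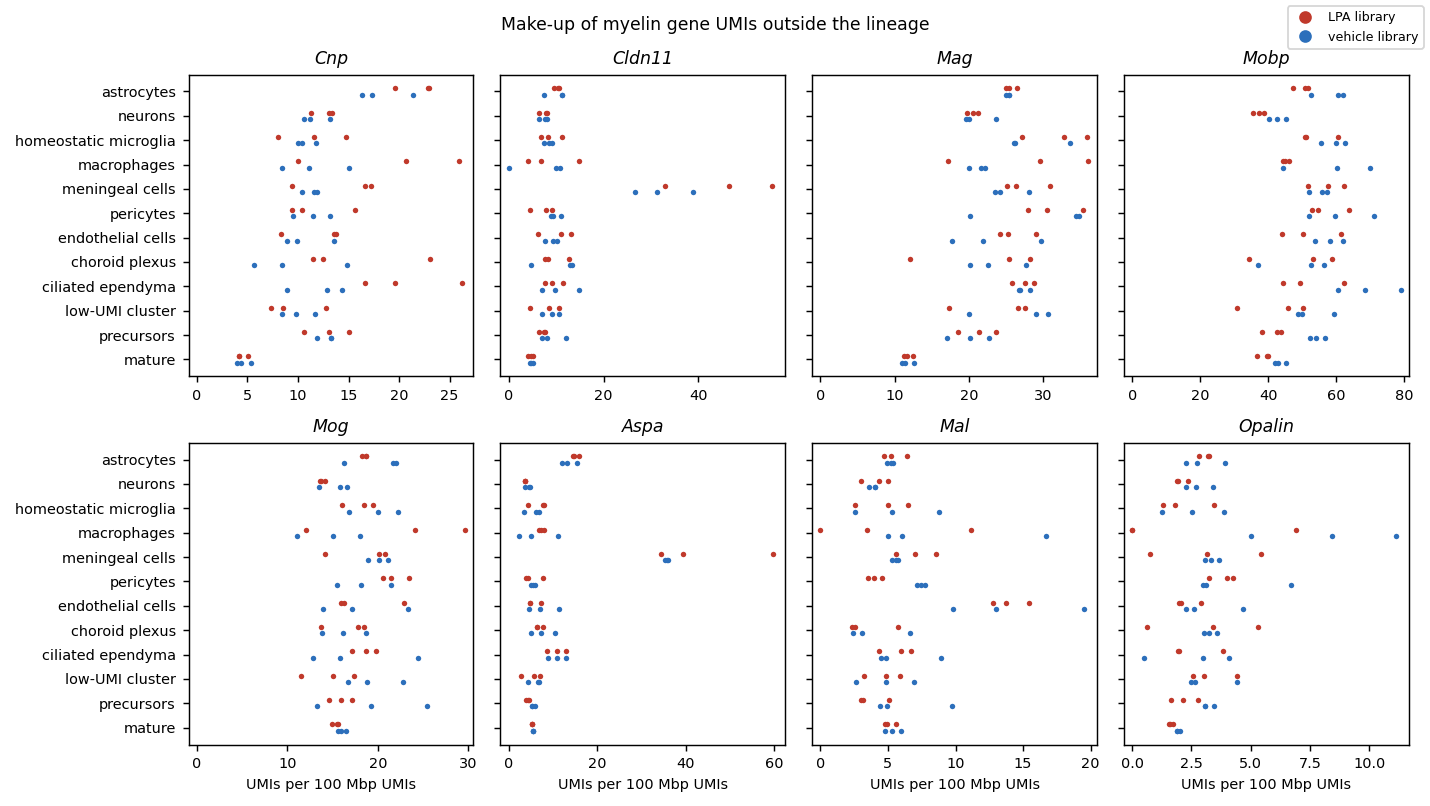
UMIs of each gene but Mbp per 100 Mbp UMIs in cell types outside the oligodendrocyte lineage, and in precursors and mature oligodendrocytes beside them, 1 point per library. Aspa and Cldn11 stand higher in meningeal cells, at means of 40.1 and 38.7, than in the other types, and Mal stands higher in endothelial cells.

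The rule for stages that uses 1 defining gene per nucleus (Pdgfra, Gpr17, Enpp6, Casr or Cemip2, and Hapln2 as gates) was tried beside the clusters and gave other results. Under the gates, 0 of 9 members were called lower in precursors (0.0359% of genes lower), 9 of 9 in committed (6.47%), 8 of 9 in newly formed (5.93%), 3 of 9 in myelin-forming (0.706%) and 0 of 9 in mature nuclei (0.161%). An unadjusted edgeR p under 0.05 was found for 5 members in gated precursors and 1 in gated mature nuclei. The gated nuclei were of mixed stage, and the mixture differed between the groups. Of nuclei gated as newly formed by Enpp6, 12.3% to 20.1% in the LPA libraries and 34.3% to 39.6% in the vehicle libraries lay in mature clusters, where Enpp6 was at 1.39 UMIs per nucleus. Of nuclei gated as committed, 66.9% to 75.4% in the LPA libraries and 46.9% to 58.2% in the vehicle libraries lay in precursor clusters. The part of this mixture in the calls was not tested.

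Other genes of myelin were followed as 3 lists. Of 21 other myelin protein genes, 20 were tested in the whole lineage, where 10 were lower, 2 were higher and the median log2 fold-change was -0.29, beside 12% of all genes called, 4.4% lower. Those of lowest adjusted p were Cmtm5 (-0.44, edgeR adjusted p = 0.000121) and Cd9 (0.44, 0.000402), a tetraspanin that many cell types make. The other gene higher was Pmp22 (0.73, 0.0149), better known from peripheral myelin. In mature nuclei 1 of 19 was called, beside 0.751% of all genes: Mpzl1 (0.38, edgeR adjusted p = 0.0395), followed by Sirt2 (-0.18, 0.235) and Cmtm5 (-0.16, 0.356), neither called. None was called at another stage.

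Of 26 genes of myelin lipid synthesis, 3 were lower and 0 higher in the whole lineage (median -0.13), a share near the 12% of all genes called: Cers2 (-0.37, edgeR adjusted p = 0.00117) and Elovl1 (-0.32, 0.0307), which make the very-long-chain lipids of myelin, and the desaturase Scd2 (-0.26, 0.0381). None was called at any stage. In mature nuclei the cholesterol synthesis genes Lss (0.25, edgeR adjusted p = 0.102), Fdft1 (0.23, 0.104) and Msmo1 (0.22, 0.123) had the lowest adjusted p, and the list median was 0.15.

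Of 18 regulators, 3 were higher and 2 lower in the whole lineage (median -0.03), beside 12% of all genes called. Sox6 (0.71, edgeR adjusted p = 8.22e-06) and Id4 (0.60, 0.0362), both known to hold back differentiation, and Nkx2-2 (0.59, 6.61e-05) were higher, and Zfp536 (-0.33, 0.00133) and Nkx6-2 (-0.46, 0.00505) were lower. Myrf and Sox10, which drive myelin genes, were at -0.08 and -0.04 and were not called. Within stages 1 was called, Zfp536 in the intermediate cluster, where 0.228% of all genes were (-0.43, edgeR adjusted p = 0.0298), where Zfp488 (-0.25, 0.805) and Olig2 (0.26, 0.844) were next and not called. Sox6 served as a marker of precursors here, so its call is not separate from the stage shares.

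Outside the lineage 8.39% of all genes were called in astrocytes (3.23% lower), 6.33% in immune, 8.24% in vascular and 3.12% in ependymal cells, and some of the counts over the lists, such as 2 of 26 lipid genes in astrocytes, lie near these shares. The other myelin protein genes were called as follows: in astrocytes 4 of 19 lower (among them Omg at -0.51, Tspan2 and Cmtm5), in immune cells 3 of 11 lower (among them Gjc3 at -0.76 and Jam3) and 1 higher (Cd9 at 1.67), in vascular cells 1 lower and 1 higher (Mpzl1), and 0 in neurons and ependymal cells. For lipid synthesis, 2 were lower in astrocytes (Ugt8a and Scd2), 1 was higher in vascular cells (Sptlc2) and 1 was lower in ependymal cells (Elovl7). For regulators, 5 were lower in astrocytes (Hes5, Zfp536, Id2, Sox8 and Zfp24), and in vascular cells Sox6 was higher and Zfp536 lower.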

How the data were processed

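The deposited files were matrices of raw UMI counts per gene and barcode, which the authors made with Cell Ranger 4.0.0 on a pre-mRNA mm10 reference that counts intronic reads, with 10000 nuclei targeted per library. Barcodes with under 300 genes, over 1% mitochondrial UMIs or a UMI total above the upper quartile by 1.5 interquartile ranges were left out. Nuclei were clustered with scanpy 1.11.5 and leidenalg 0.10.2 (3000 variable genes, 40 components, 30 neighbors, resolution 1; 2000, 20 and 20 within the lineage). The members, listed genes, marker genes and mitochondrial genes were kept out of clustering. Clusters were named from their markers (at least 3 detected). Clusters with markers of 2 classes or 2 stages, or with a median UMI count under 0.333 of the library's, were not named. The cluster between the committed and newly formed stages held markers of both and was kept as its own stage. Doublets were called with Scrublet (expected rate 0.08) and left out in an alternative.

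Counts were summed per library and stage or class and tested in R 4.3.3 with edgeR 4.0.16 (TMM, filterByExpr, glmQLFit and glmQLFTest), LPA against vehicle, wherever each library had 10 nuclei or more. CPM values are from the same fits. SE is the log2 fold-change divided by the root of the F statistic. The fit across the 5 named stages had library, stage and stage by treatment terms. Shares, common-mix levels and library totals were compared with two-sided exact permutation tests, which cannot go below p = 0.1 with 3 libraries against 3. For detection, each nucleus of 1000 UMIs or more was thinned to 1000 UMIs, and nuclei under that were left out. Unthinned shares used all nuclei. Alternatives were DESeq2 1.42.0, other size factors, no low-count filter, the replicate block, no doublets, no mitochondrial filter, resolution 2, gates on single genes, nuclei of 2000 UMIs or more and leaving out each library. The scripts were tested on simulated data. Counts of libraries of 1 group differed by more than sampling noise. Members and lists were chosen with earlier results of these data known. From each list the text names the 3 genes of lowest adjusted p in the whole lineage and at the stage with the most calls, and other called genes were named after their values were seen. Some genes of these lists are not reported here. Promoters came from RefSeq (GRCm38.p6).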

Additional observations from a re-analysis of the deposited data

Results flagged for a closer look

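The LPA effect on Mobp differed between stages in the joint edgeR test (adjusted p = 0.000117), and so did that on Aspa (adjusted p = 0.0229). The effect on Mobp in committed precursors minus that in mature oligodendrocytes was -0.817 on the log2 scale. Without vehicle 2 the adjusted p values were 0.154 and 0.811, and the committed difference was -0.11. In the joint test, leaving out any other library kept Mobp between 8.49e-08 and 0.00106. Aspa was past the threshold when vehicle 1 (0.000531) or vehicle 3 (0.0495) was left out, and was at 0.0719, 0.111 and 0.0737 when LPA 1, 2 or 3 was. The committed difference in Mobp also missed the threshold without LPA 1, 2 or 3 (edgeR adjusted p = 0.279, 0.0939 and 0.119). Without called doublets Aspa was at 0.0539 and Mog at 0.0116 in the joint edgeR test. In precursors, detection of Mobp lay at the share found in astrocytes.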

How the results depend on the processing

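Each member's log2 fold-change was recomputed under 1526 combinations of result and alternative. Of these, 1413 kept their side of the threshold, and 46 of the 1413 changed sign without a call in either setting. Another 68 lost a call, 40 gained one and 5 reversed, all 5 under the gates on single genes. Reversed were, in committed precursors, Mag (-0.83), Cnp (-0.80) and Cldn11 (-0.81), and in newly formed nuclei Mog (-0.75) and Mobp (-0.97), all below 0 under the gates. The replicate numbers showed no clear pairing of the libraries: deviations of same-numbered libraries correlated at 0.0119 to 0.162 for number 1, 0.013 to 0.205 for number 2 and -0.156 to -0.014 for number 3. Pairs of unlike number ran from -0.3207 to 0.2126. With the replicate block 1 member was called lower in committed precursors (0.101% of all genes called), 0 in mature nuclei (0.828%), 1 in neurons (0.106%) and 3 in immune cells (5.2%).

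Percents in brackets are the share of all genes called under the same setting, in either direction. In precursors 2 members were called without the low-count filter (0.224%), 3 at resolution 2 (0.202%) and 0 under the gates (0.0479%). In committed precursors 2 were called without the filter (0.137%), 1 at resolution 2 (0.129%) and 9 under the gates (12%). The gates also called 8 in newly formed (11%) and 3 in myelin-forming nuclei (2.86%). In mature nuclei 0 were called with RLE size factors (0.768%), without doublets (0.743%), without the mitochondrial filter (0.693%), at resolution 2 (0.752%) and under the gates (0.215%). There 1 was called with DESeq2 (0.64%), without the low-count filter (0.819%) and at 2000 UMIs or more (0.743%). In neurons DESeq2 called 1 (0.2%) and no filter 2 (0.155%). In immune cells DESeq2 called 2 (3.53%) and homeostatic microglia alone gave 3 (1.71%). In vascular cells meningeal cells alone gave 3 (1.23%). In ependymal cells DESeq2 (1.59%) and nuclei of 2000 UMIs or more (3.55%) called 1 each. The newly formed share differed by 0.275 percentage points under the gates, the opposite direction. The mature difference was -5.28 points under the gates against -11.8, the precursor difference 4.34 against 11.6, and myelin-forming shares overlapped there (-2.83, exact permutation p = 0.3). Without the mitochondrial filter the myelin-forming difference was -1.44 against -4.22. Common-mix differences under the gates were -0.22 for Mbp, -0.37 for Mog, -0.24 for Mag, -0.40 for Mobp, -0.51 for Mal, -0.61 for Opalin, -0.47 for Aspa and -0.25 for Cldn11. The cause was not tested.

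Leaving out 1 library at a time gave 5 to 9 called members in the lineage (6.94% to 11.7% of all genes called). It gave 1 to 2 in precursors (0.0689% to 0.225%), 0 to 2 in committed precursors (0.0568% to 0.155%) and 0 in mature nuclei (0.307% to 0.924%). Outside the lineage it gave 2 to 6 in astrocytes (5.63% to 8.19%), 0 to 3 in neurons (0.0172% to 0.154%) and 0 to 5 in immune cells (3.08% to 5.98%). Vascular cells had 1 to 6 (4.78% to 9.22%), ependymal cells 0 to 3 (1.17% to 6.08%) and the joint test over stages 0 to 3. Common-mix differences then ran from -0.092 (without vehicle 3) to 0.0224 (without vehicle 1) for Mag, from -0.144 (without LPA 3) to 0.0757 (without vehicle 1) for Cnp and from -0.136 (without LPA 3) to 0.0124 (without LPA 1) for Cldn11. Genes called over all alternatives ranged from 0 (DESeq2) to 1226 (gates) in committed precursors, where edgeR called 9, from 2 to 1231 in newly formed nuclei (12), 12 to 349 in myelin-forming nuclei (27), 4 to 48 in precursors (19), 5 to 36 in the intermediate cluster (18), 24 to 180 in mature nuclei (88), 3 to 40 in neurons (11), 1069 to 2193 in the lineage (1818), 137 to 744 in immune cells (600), 156 to 1514 in vascular cells (1143) and 140 to 727 in ependymal cells (367). The intermediate cluster was not formed without the mitochondrial filter, at resolution 2 or under the gates, and immune cells held too few nuclei of 2000 UMIs or more for a fit. The 9 members had from 110 UMIs (Opalin) to 4284 (Mbp) in precursors over all libraries, so small differences in the lower genes were not detectable there.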
